A study of Mus musculus with 5 samples.

Results

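The genes described here are 10 genes of the response of cells to low oxygen, taken from the count table by gene symbol. They are the oxygen-regulated alpha subunits *Hif1a* and *Epas1*, the regulators *Vhl*, *Egln1* and *Egln3*, and the target genes *Vegfa*, *Epo*, *Car9*, *Bnip3* and *Ndrg1*. All 10 were among the 24421 gene symbols of the table, and 9 had enough counts to be tested. Kidney cortex of 5 mice was sequenced as RNA, with 1 library per mouse. The *Fnip1* null mice (*Fnip1*-/-) were 8637, 9210 and 9121, and the wildtype mice (*Fnip1*+/+) were 9055 and 9056. All 5 mice were of the C57BL6J strain, and their kidneys were flash frozen, with no drug or oxygen treatment named in the labels. The null allele came from chemical (ENU) mutagenesis and is carried by every cell of the animal, so the loss of Fnip1 was not limited to the kidney or to a kidney cell type. The labels give neither age nor sex, and the study gives an age range for the set but none for single mice. Its legend counts more wildtype mice than were analysed here, and the deposited table of mouse 9210 carries another mouse number in its name, so the label was followed. The running text of the study calls the controls *Fnip1*+/- where the labels have *Fnip1*+/+. Fnip1 is a binding partner of folliculin and of AMPK, a kinase that senses cellular energy, and the comparison asks whether transcripts of the hypoxia response differed in kidneys that lack it.

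Hypoxia-inducible factors are transcription factors made of an alpha subunit and the stable partner Arnt. In the presence of oxygen, prolyl hydroxylases encoded by the *Egln* genes modify the alpha subunit, the *Vhl* product then marks it for degradation, and little reaches the nucleus. When oxygen is low, or *Vhl* is lost as in clear cell kidney cancer, the alpha subunit persists and activates genes for blood vessel growth, glycolysis, pH control, mitophagy and, in interstitial cells of the kidney, erythropoietin. The amount of alpha subunit protein is set largely by this degradation, which transcript counts do not measure, so its activity is usually read from target transcripts.

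To show where the core letters of HIF binding lie near these genes, the 250 bases upstream of the annotated start of 4 members are printed, taken from RefSeq on the GRCm38.p6 build, which is the mm10 build of the counts. They belong to *Epo*, the kidney's own hypoxia hormone, and to *Car9*, *Bnip3* and *Egln3*, which are HIF targets in many tissues and differ here in the number and place of the motif. Capitals mark ACGTG or GCGTG on either strand, the core of the hypoxia response element, and overlapping matches run together. Each sequence is written 5′ to 3′ on the strand of its gene.
Epo, chr5:137485817-137486066, minus strand: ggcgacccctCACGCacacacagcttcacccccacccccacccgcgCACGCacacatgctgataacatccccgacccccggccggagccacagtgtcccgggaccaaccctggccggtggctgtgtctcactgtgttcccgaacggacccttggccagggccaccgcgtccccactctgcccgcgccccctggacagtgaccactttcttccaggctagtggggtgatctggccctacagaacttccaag
Car9, chr4:43506776-43507025, plus strand: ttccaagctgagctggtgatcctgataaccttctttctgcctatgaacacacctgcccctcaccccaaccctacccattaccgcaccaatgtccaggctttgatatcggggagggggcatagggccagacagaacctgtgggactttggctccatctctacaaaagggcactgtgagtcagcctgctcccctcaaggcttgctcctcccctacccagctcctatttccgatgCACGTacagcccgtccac
Bnip3, chr7:138909507-138909756, minus strand: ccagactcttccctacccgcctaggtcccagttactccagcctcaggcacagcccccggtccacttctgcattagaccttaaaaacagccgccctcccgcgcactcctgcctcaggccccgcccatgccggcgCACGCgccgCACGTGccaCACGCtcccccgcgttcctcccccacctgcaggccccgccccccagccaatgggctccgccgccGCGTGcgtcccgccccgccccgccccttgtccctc
Egln3, chr12:54203875-54204124, minus strand: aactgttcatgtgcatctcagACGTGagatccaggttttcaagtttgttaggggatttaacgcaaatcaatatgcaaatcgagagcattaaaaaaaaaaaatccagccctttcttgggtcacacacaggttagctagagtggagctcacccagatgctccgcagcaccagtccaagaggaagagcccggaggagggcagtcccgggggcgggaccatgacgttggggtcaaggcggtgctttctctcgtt

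*Bnip3* held the most matches of these 4 windows, 2 of ACGTG (the same palindrome read on both strands) and 3 of GCGTG, and *Car9* held 1 ACGTG whose nearest base lies 14 bases before its start. *Egln3* held 1 ACGTG, with its nearest base 225 bases upstream, and *Epo* held 2 GCGTG and no ACGTG in this window. RefSeq promoter entries were matched for 8 of the 10 members. Of those not printed, *Hif1a* held 3 ACGTG, of which 2 are the same palindrome, in an entry whose start (73907867) lies within the gene, *Egln1* held 1 of each motif, and *Vhl* held none. Of 2 *Vegfa* entries, that at the gene's start held none and that within the gene held 1 of each. Of all 32851 RefSeq promoter windows of this length, 16.6% held ACGTG and 38.6% held ACGTG or GCGTG, so a match is a description of the window and not a site of binding.

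Gene counts ranged from 15799114 to 19132145 per mouse, and values are given below as CPM, counts per 1000000 counts after scaling of the libraries by TMM. The *Fnip1* transcript, which checks the labels, was 17.97 ± 2.645 CPM in null (SD, n = 3) and 50.22 ± 2.176 CPM in wildtype mice (SD, n = 2), a log2 fold change of -1.48 (SE 0.138, adjusted p = 0.0330 in edgeR's quasi-likelihood test). Markers of the proximal tubule, the main segment of the cortex, summed to between 12220 and 20590 CPM over the 5 mice. Inner medulla markers summed to 36.1, 60.9 and 189 CPM in null mice 8637, 9210 and 9121, and to 138 and 50.2 CPM in wildtype mice 9055 and 9056. They thus differed between mice of the same genotype, and the part of medulla in the results was not tested. The proximal tubule sum was 12220 to 17030 CPM in null and 17720 to 20590 CPM in wildtype mice, lower in every null mouse than in both wildtype mice, with 2 of the 10 markers above and 5 below in all null mice, and its part in the results was not tested. The library of null mouse 9121 stood apart from the other 4 in sex chromosome transcripts. It held 314 CPM of *Xist*, the X inactivation transcript, against 0.172 to 1.41 CPM, and no count of the Y-linked gene *Ddx3y*, against 42.8 to 52.2 CPM. Values that moved by more than 1.5 times without this mouse are given without it too.

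No member was differentially expressed between *Fnip1* null and wildtype kidneys. Differential expression was called at a Benjamini-Hochberg FDR of 5% over all 13874 genes tested together with a change of at least 2-fold. By edgeR's quasi-likelihood test 0 of the 9 members tested passed, where 0.526% of all genes did, and 0 passed at an FDR of 5% alone, where 0.678% of all genes did. At the FDR with the 2-fold change the count was also 0 by edgeR's exact test (4.07% of all genes), its likelihood ratio test (4.53%) and DESeq2 (3.51%), and it was 0 at the FDR alone in each of them (9.77%, 10.6% and 10.3% of all genes). At an unadjusted p under 0.05, 1 member passed, *Epas1*, which was higher in null mice, where 25.1% of all genes did, 14% of all genes higher and 11.2% lower. Adjusted p ran from 0.151 for *Epas1* to 0.981 for *Vhl*.

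The log2 fold changes, given as null minus wildtype, were small. They ran from -0.33 for *Car9* to 0.42 for *Egln3*, with 5 above and 4 below 0. Their median size regardless of sign was 0.125, against 0.223 over all genes tested, and their signed median was 0.05, against 0.0035. For 7 of the 9 members the 95% interval of the fold change lay within a 2-fold change in either direction. *Egln3* and *Car9* were the exceptions, with intervals that reached past 2-fold. The null mice all lay above both wildtype mice for 3 members (*Hif1a*, *Epas1* and *Vegfa*) and all below them for *Egln1*, where 45.9% of all genes had groups that did not overlap, 22.9% higher and 23% lower.

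**Figure D1:**
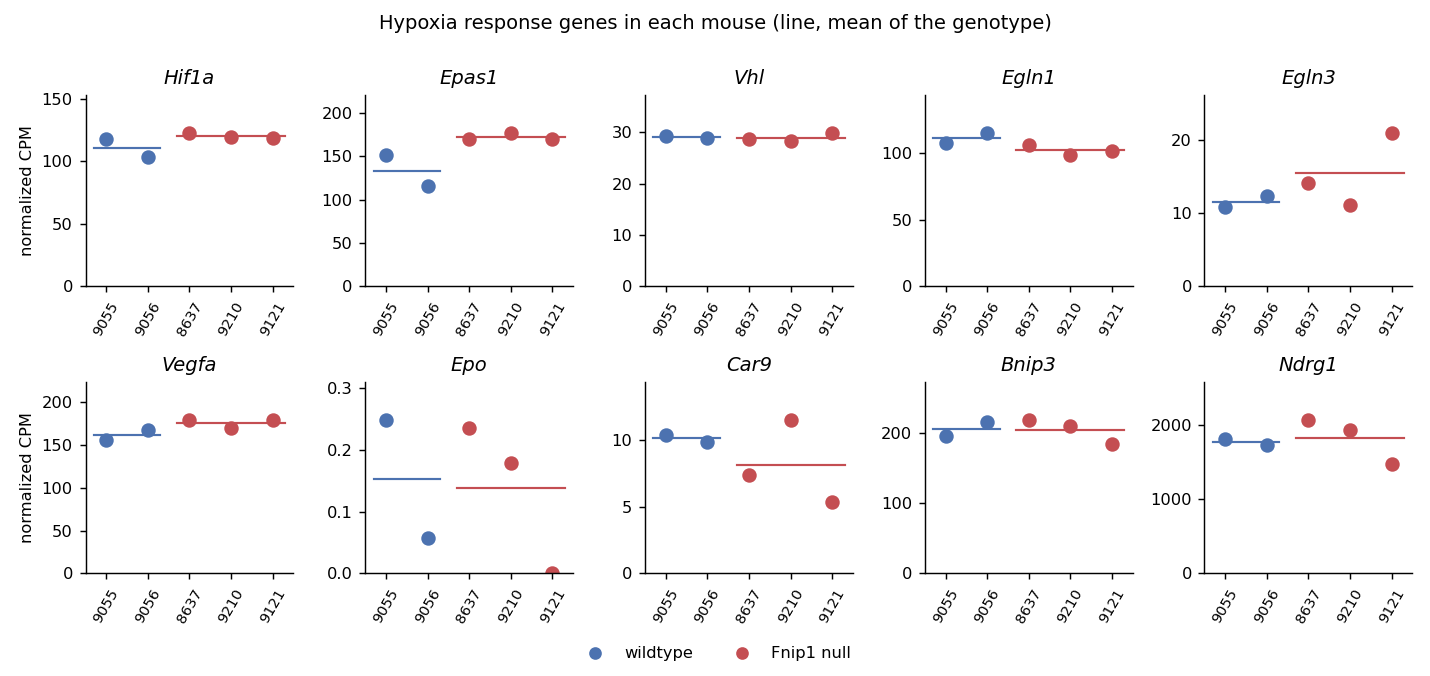
Normalized CPM of the 10 members in each mouse, with 1 panel per gene, points for single mice and a bar at each group mean. The 3 *Fnip1* null mice and the 2 wildtype mice overlap in *Vhl*, *Egln3*, *Epo*, *Car9*, *Bnip3* and *Ndrg1*, and mouse 9121 is the highest in *Egln3* and the lowest in *Car9*, *Bnip3*, *Ndrg1* and *Epo*.

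**Figure D2:**
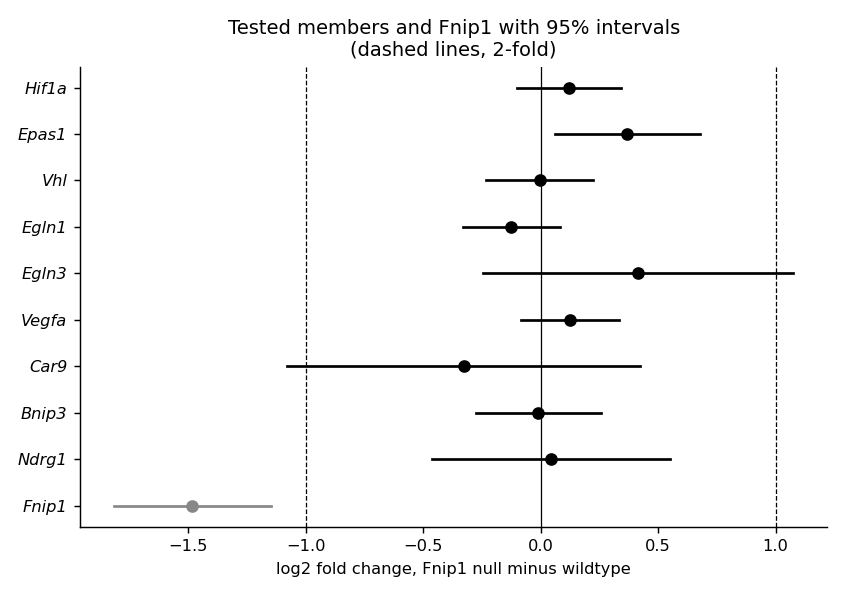
Log2 fold change (null minus wildtype) of the 9 members tested, with its 95% interval from edgeR's quasi-likelihood test. The intervals cross 0 for all but *Epas1* (0.06 to 0.68), and only those of *Egln3* and *Car9* reach beyond a 2-fold change.

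*Hif1a* encodes the widely expressed alpha subunit, which in kidney is found mainly in tubule cells. The gene lies on chromosome 12 (GRCm38, 73901324 to 73947554, RefSeq, plus strand). Its CPM was 123, 119 and 118 in the null mice (8637, 9210 and 9121) against 118 and 103 in the wildtype pair (9055 and 9056). The group means were 120.2 ± 2.281 CPM (SD, n = 3) and 110.5 ± 10.16 CPM (SD, n = 2), a log2 fold change of 0.12 (SE 0.0915, 95% interval -0.10 to 0.34, adjusted p = 0.442). The lowest null value and the higher wildtype value were nearly level, and the log2 fold change was 0.027 without mouse 9056 and 0.21 without mouse 9055. Other annotated genes overlap 9.9% of the *Hif1a* exons, among them 1 on the opposite strand, and reads from them cannot be told apart in these counts.

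*Epas1* encodes HIF-2 alpha, which is typical of endothelial and interstitial cells and is the subunit that drives erythropoietin in the kidney. The gene lies on chromosome 17 (86753864 to 86833410, plus strand). *Epas1* stood at 170, 177 and 170 CPM in 8637, 9210 and 9121 (null), and 151 and 116 CPM in 9055 and 9056 (wildtype). The null mice were tightly grouped and above both wildtype mice, which differed from each other more than the null mice did. The mean was 172.5 ± 3.91 CPM in null (SD, n = 3) and 133.6 ± 24.95 CPM in wildtype mice (SD, n = 2). The log2 fold change was 0.37 (SE 0.127, 95% interval 0.06 to 0.68), with an unadjusted p of 0.0260 and an adjusted p of 0.151 in edgeR's quasi-likelihood test. It was 0.19 without mouse 9056 and 0.57 without mouse 9055, so either wildtype mouse moved it by more than 1.5 times.

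Endothelial transcripts had the same low mouse. All 8 endothelial markers tested, such as *Pecam1* and *Cdh5*, were lowest in wildtype mouse 9056, at 0.69 to 0.876 of the wildtype mean, where *Epas1* was at 0.868. The 3 vascular receptors *Kdr*, *Flt1* and *Tek* were also lowest in that mouse. Summed endothelial markers were 460 to 665 CPM in null and 309 to 480 CPM in wildtype mice, with 3 of 8 markers above both wildtype mice in every null mouse and 0 of 8 past the FDR of 5% in edgeR's quasi-likelihood test. The markers were highest in mouse 9121 for 8 of 8 genes, while *Epas1* was level across the null mice. How many of all genes were lowest in mouse 9056 or highest in mouse 9121 was not counted. Of 10 interstitial fibroblast and pericyte markers, 8 were also lowest in mouse 9056. The part of endothelial and interstitial RNA in the *Epas1* values was not tested. In tissue RNA, fewer cells of a type and less RNA per cell cannot be told apart.

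**Figure D3:**
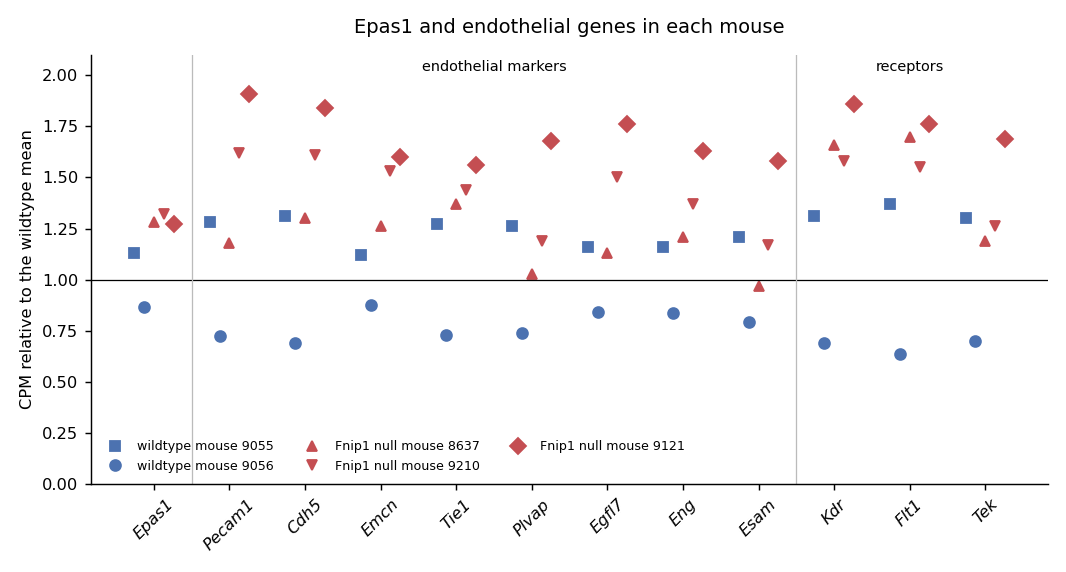
Level of *Epas1*, of the 8 endothelial markers and of the vascular receptors *Kdr*, *Flt1* and *Tek* in each mouse, relative to the wildtype mean of the gene. *Epas1* runs from 0.868 in mouse 9056 to 1.32 in mouse 9210, and every endothelial gene shown is lowest in mouse 9056.

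Of the regulators that act against the alpha subunits, *Vhl* was level, *Egln1* was slightly lower in every null mouse, and *Egln3* varied among the null mice. *Vhl* encodes the substrate receptor of the ubiquitin ligase that marks the hydroxylated alpha subunit (chromosome 6, 113623994 to 113631634, plus strand). *Vhl* was 28.6, 28.2 and 29.9 CPM in the null mice (8637, 9210 and 9121) against 29.2 and 28.8 CPM in the wildtype pair (9055 and 9056). It was the steadiest member, with a highest value 1.06 times the lowest, where the median gene had 1.43 times. Its means were 28.92 ± 0.8587 CPM (SD, n = 3) and 29.01 ± 0.2634 CPM (SD, n = 2), and the log2 fold change was -0.0045 (SE 0.0939, 95% interval -0.23 to 0.22, adjusted p = 0.981), and it was -0.029 without mouse 9121.

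*Egln1* encodes Phd2, the main prolyl hydroxylase of oxygen sensing (chromosome 8, 124908587 to 124949254, minus strand). Its values were 106, 98.4 and 101 CPM in 8637, 9210 and 9121 (null), and 107 and 115 CPM in 9055 and 9056 (wildtype). Every null mouse was below both wildtype mice, with mice 8637 and 9055 the nearest pair. The means of 102 ± 3.995 CPM (SD, n = 3) and 111.3 ± 5.334 CPM (SD, n = 2) gave a log2 fold change of -0.12 (SE 0.0849, 95% interval -0.33 to 0.08, adjusted p = 0.396). It was -0.078 without mouse 9056.

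*Egln3* encodes Phd3, a prolyl hydroxylase that is itself a strongly inducible HIF target (chromosome 12, 54178981 to 54203874, minus strand). It had the largest log2 fold change of the members, and null mice differed widely in it. *Egln3* was 14.1, 11.1 and 20.9 CPM in the null mice (8637, 9210 and 9121) against 10.7 and 12.4 CPM in the wildtype pair (9055 and 9056). Mouse 9121 was the highest, and mouse 9210 lay between the wildtype mice. The means were 15.39 ± 5.014 CPM (SD, n = 3) and 11.55 ± 1.136 CPM (SD, n = 2), with a log2 fold change of 0.42 (SE 0.274, 95% interval -0.25 to 1.08, adjusted p = 0.382). Without mouse 9121, which held the *Xist* transcript, it was 0.13, and the part of sex in these values was not tested. Over the 5 mice the genes closest in pattern to *Egln3* were *Jph1*, *Alb* and *Zbtb10*, with a root mean square difference of 0.0508, 0.0827 and 0.0872 in mean-centred log2(CPM + 0.5). All 3 were likewise highest in mouse 9121, which follows from how they were picked.

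*Vegfa*, the endothelial growth factor and a classic HIF target, was nearly level, with a highest value 1.15 times the lowest (chromosome 17, 46016993 to 46032377, minus strand). It stood at 179, 170 and 179 CPM in 8637, 9210 and 9121 (null), and 156 and 168 CPM in 9055 and 9056 (wildtype). The means were 176.2 ± 5.127 CPM (SD, n = 3) and 161.6 ± 8.666 CPM (SD, n = 2), a log2 fold change of 0.12 (SE 0.0864, 95% interval -0.08 to 0.33, adjusted p = 0.403). The null mice were above the wildtype mice, but the nearest values, in mice 9210 and 9056, differed by less than the wildtype mice did from each other. Without mouse 9055 the log2 fold change was 0.067. In the kidney *Vegfa* is made by podocytes as well as tubule cells, and the podocyte markers summed to 676 to 791 CPM in null and 375 to 379 CPM in wildtype mice, with 6 of 6 above in every null mouse. Of these, 4 passed an FDR of 5% in edgeR's quasi-likelihood test. Their part in the *Vegfa* values was not tested.

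*Epo*, the erythropoietin gene, was at the limit of detection (chromosome 5, 137483020 to 137485816, minus strand). The counts were 4, 3 and 0 in the null mice (8637, 9210 and 9121) against 4 and 1 in the wildtype pair (9055 and 9056), 12 counts in all. These are 0.236, 0.178 and 0 CPM, and 0.249 and 0.0572 CPM, where 3 counts correspond to 0.158 to 0.186 CPM. The 0 in mouse 9121 is a count of none, and its upper limit is those 3 counts. *Epo* was left out of the test, which needs 10 counts in at least 3 mice. Summed over the mice, 7 counts in null and 5 in wildtype gave 0.133 CPM (95% exact interval 0.0534 to 0.274) and 0.149 CPM (0.0483 to 0.348). The ratio of null to wildtype was 0.892 with an exact 95% interval of 0.244 to 3.56, which covers counting error alone and not the spread between mice, so a difference of several-fold was not detectable at this depth. Markers of interstitial fibroblasts and pericytes, the cells that make erythropoietin in the kidney, summed to 415 to 699 CPM in null and 321 to 505 CPM in wildtype mice. The 10 markers were not uniform, with 7 above and 1, *Nt5e*, below both wildtype mice in every null mouse. *Nt5e* was 60.1, 66.9 and 39.4 CPM in null mice 8637, 9210 and 9121, and 169 and 117 CPM in wildtype mice 9055 and 9056. The part of these cells in the *Epo* counts was not tested.

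*Car9* encodes carbonic anhydrase 9, a membrane enzyme that regulates pH and is nearly absent from normal kidney until *Vhl* is lost (chromosome 4, 43507026 to 43513729, plus strand). *Car9* was 7.43, 11.5 and 5.39 CPM in 8637, 9210 and 9121 (null), and 10.4 and 9.90 CPM in 9055 and 9056 (wildtype). The null mice lay on both sides of the wildtype mice, with mouse 9210 highest and mouse 9121 lowest. Means were 8.115 ± 3.131 CPM (SD, n = 3) and 10.17 ± 0.3835 CPM (SD, n = 2), and the log2 fold change was -0.33 (SE 0.310, 95% interval -1.08 to 0.42, adjusted p = 0.535). It was -0.10 without mouse 9121 and -0.67 without mouse 9210. An annotated gene on the opposite strand covers 7.2% of its exons.

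*Bnip3* encodes a mitochondrial outer membrane protein that brings on mitophagy under hypoxia (chromosome 7, 138890836 to 138909506, minus strand). Its values were 219, 210 and 184 CPM in the null mice (8637, 9210 and 9121) against 196 and 216 CPM in the wildtype pair (9055 and 9056). The groups overlapped, and means were 204.4 ± 17.98 CPM (SD, n = 3) and 205.9 ± 14.42 CPM (SD, n = 2). The log2 fold change was -0.01 (SE 0.110, 95% interval -0.28 to 0.26, adjusted p = 0.962), and it was 0.059 without mouse 9121. Of all genes tested, 2.8% had a smaller change in either direction. An opposite-strand gene covers 28.7% of the exons.

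*Ndrg1* encodes a stress-response protein induced by hypoxia and was the most abundant member (chromosome 15, 66929318 to 66969641, minus strand). It reached 2070, 1931 and 1476 CPM in 8637, 9210 and 9121 (null), and 1808 and 1731 CPM in 9055 and 9056 (wildtype). Mouse 9121 was the lowest and the other null mice were above the wildtype mice. Means were 1826 ± 311.1 CPM (SD, n = 3) and 1770 ± 54.54 CPM (SD, n = 2), a log2 fold change of 0.05 (SE 0.209, 95% interval -0.46 to 0.55, adjusted p = 0.911), and it was 0.18 without mouse 9121. Opposite-strand genes cover 19.2% of its exons.

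Compared per length, as CPM divided by the kilobases of exon of the gene (CPM per kilobase), the members spanned a wide range of levels. *Ndrg1* had the highest level, 624 CPM per kilobase as the mean of the 5 mice (511 to 717), followed by *Bnip3* at 117 (105 to 125) and *Vegfa* at 48.4 (44.1 to 50.9). *Egln1* at 29.4 (27.4 to 32), *Epas1* at 28.5 (21 to 32.1) and *Hif1a* at 24 (21.3 to 25.3) came next, and neighbours among these 3 overlapped between mice, so their order was not fixed. *Vhl* at 10.4 (10.1 to 10.7) lay above *Egln3* at 5.2 (4.04 to 7.86) and *Car9* at 4.42 (2.66 to 5.7), which overlapped with each other, and *Epo* was lowest at 0.201 (0 to 0.348). The ratio of *Epas1* to *Hif1a* per kilobase was 1.22, 1.3 and 1.26 in null mice and 1.13 and 0.987 in wildtype mice. The null mice were again above both wildtype mice, and this ratio rests on the same *Epas1* values as above.

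A list of 91 further genes of the hypoxia pathway, of which 84 were tested, was measured beside the members. By edgeR's quasi-likelihood test 0 passed an FDR of 5% (lowest adjusted p = 0.067), while 25 had an unadjusted p under 0.05, 17 higher and 8 lower in null mice, where 25.1% of all genes had. EdgeR's exact test called 12 at an FDR of 5%, 10 higher and 2 lower, where it called 9.77% of all genes, 6.16% higher and 3.62% lower, and 6 of them changed at least 2-fold. The likelihood ratio test called 10 higher and 2 lower as well, and DESeq2 10 higher and 4 lower, of which 10 were among the 12 of the exact test. All 12 had groups that did not overlap, where 45.9% of all genes had such groups. The exact test chose the 12 from these same values, so this adds no support. Of the 12, *Hk2* met the count filter only through the null mice. The wildtype mice were too few for a gene high in them alone to meet it. Over the 84 genes the median log2 fold change was 0.104, against 0.0035 over all genes, and the median size was 0.32 against 0.223.

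In the group of HIF subunits and partners, 6 genes were tested and had a median log2 fold change of -0.03, and none was called by any test. *Hif3a*, an inhibitory alpha subunit, had the largest value at 1.12 (SE 0.988), with 7.07 CPM in mouse 8637 and 0.370 CPM in mouse 9121. It was 0.13 without mouse 8637 and 1.62 without mouse 9055. *Cited2* and the coactivator gene *Crebbp* were at -0.40 and -0.23. The 10 genes of oxygen sensing and HIF turnover had a median of -0.11. Of these, *Siah2*, a ubiquitin ligase that degrades Phd proteins (log2 fold change -0.49, adjusted p = 0.0803 in the quasi-likelihood test and 0.0247 in the exact test), and *Usp20*, a deubiquitinase (-0.69, 0.0902 and 0.0092), were called lower by the exact test. *P4htm*, a membrane prolyl hydroxylase, was at 0.67 without a call by the quasi-likelihood, exact or likelihood ratio test or DESeq2. It was at 0.35 without mouse 9056 and at 1.04 without mouse 9055.

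In glucose uptake and glycolysis, 19 genes were tested with a median of 0.17, and the exact test called 4 higher. They were *Hk2* (1.48, adjusted p = 0.131 in the quasi-likelihood test and 0.0493 in the exact test), *Pdk1* (0.48, 0.0900 and 0.0293), *Pfkfb3* (0.70, 0.0927 and 0.0125) and *Ppp1r3c* (1.52, 0.0931 and 0.00719). *Hk2* encodes a hexokinase of the first step of glycolysis, *Pfkfb3* an activator of phosphofructokinase and *Pdk1* a pyruvate dehydrogenase kinase, while *Ppp1r3c* targets a phosphatase to glycogen. *Ldha*, the lactate dehydrogenase subunit that is a standard HIF target, was at -0.52 (adjusted p = 0.143 in the quasi-likelihood test), and DESeq2 called it lower (0.0411).

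The vascular and secreted targets leaned furthest, with a median of 0.58 over 12 genes, 11 of them above 0. The exact test called 1, *Stc2* (0.98, adjusted p = 0.0862 in the quasi-likelihood test and 0.0245 in the exact test), while *Cxcr4* at 0.77 and *Kdr* at 0.76 were not called by the quasi-likelihood or exact test. DESeq2 called *Kdr* (adjusted p = 0.0461) and not *Stc2* (0.0526). *Cxcr4* was 0.50 without mouse 9121 and *Kdr* 0.37 without mouse 9056. Without mouse 9055 *Cxcr4* was 1.03 and *Kdr* 1.29. The endothelial markers had a median of 0.55, close to this group, and their part in it was not tested. Leukocyte markers had a median of 1.34 over 8 tested, with 5 above and 1 below both wildtype mice in every null mouse. The leukocyte markers *Cd79a* and *Ms4a1* had too few counts to be tested and were also below in every null mouse. Summed, the leukocyte markers were 81.8 to 181 CPM in null and 91.9 to 109 CPM in wildtype mice. Their part in the *Cxcr4* value was not tested either. *Loxl2* (1.06, 0.0791 and 0.00188 in the same tests) and *Lox* (1.45, 0.124 and 0.0358), enzymes that cross-link collagen, were the genes the exact test called in the pH and matrix group, and the fibroblast and pericyte markers had a median of 0.84. Of these 10 markers, 7 were above and 1, *Nt5e* at -1.37, was below both wildtype mice in every null mouse, and their part in the *Lox* and *Loxl2* values was not tested. *Car12*, a carbonic anhydrase like *Car9*, was at 0.43. The mitochondrial and mitophagy genes, the group nearest to *Bnip3*, had a median of -0.05 with no call by the quasi-likelihood or exact test, and its largest values were *Hilpda* at 0.84, *Ak4* at -0.41 and *Plin2* at -0.39. Without mouse 9121 *Hilpda* was 0.34 and *Ak4* -0.25, and without mouse 9056 *Ak4* was -0.18. Without mouse 8637 *Hilpda* was 1.08 and *Ak4* -0.66.

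Around *Epo*, the group of erythropoietin control and iron had a median of 0.31 over 9 tested genes. *Trf*, the serum transferrin gene, showed the largest value of the list, 1.98 (SE 0.365, adjusted p = 0.067 in the quasi-likelihood test and 3.29e-05 in the exact test), with 34.4, 72.3 and 79.5 CPM in the null mice (8637, 9210 and 9121) against 16.6 and 14.8 CPM in the wildtype pair (9055 and 9056). *Gata3*, a GATA transcription factor of the distal nephron, was 0.77 (0.0877 and 0.00999). Distal nephron markers had a median of 0.55, with 6 of 8 above both wildtype mice in every null mouse and none below, and their part in the *Gata3* value was not tested. *Bhlhe41*, a hypoxia-responsive repressor in the stress and feedback group, was 1.09 (0.0738 and 0.0015), while *Zfp395* was at 0.52 and *Ddit4*, a stress-induced inhibitor of mTORC1, at 0.35. *Epor*, the receptor of erythropoietin, was 0.69, and 0.088 without mouse 9121. Without that mouse *Zfp395* was 0.23, and without mouse 9210 *Ddit4* was -0.0029.

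**Figure D4:**
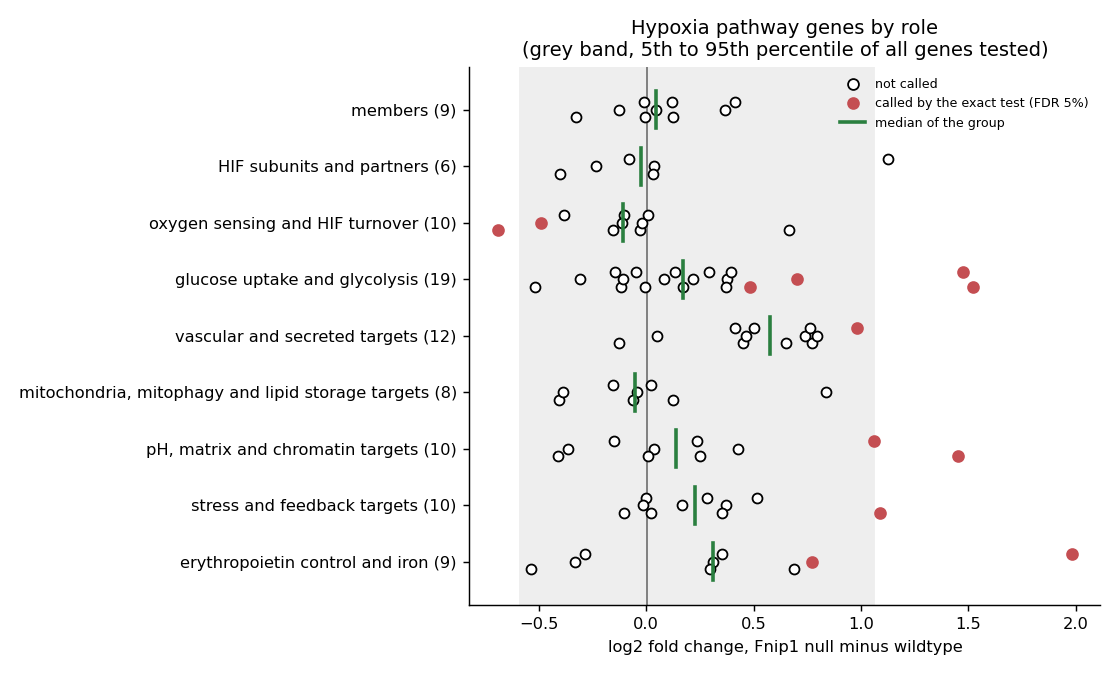
Log2 fold change (null minus wildtype) of the members and of the 84 other hypoxia pathway genes tested, by role, with the number tested in brackets. A grey band spans the 5th to 95th percentile of all genes tested, and 12 genes called by edgeR's exact test at an FDR of 5% are filled in red, none of them a member. The median of the vascular group, 0.58, is the highest of the groups shown.

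The direction of the small fold changes depended on settings for *Vhl*, *Bnip3* and *Ndrg1*. *Egln1* was above 0 only with library size as the scaling, which moved the median of all genes to 0.167, and relative to that median it was -0.13. By contrast, *Hif1a*, *Epas1*, *Egln3* and *Vegfa* stayed above 0 and *Car9* below 0 in the 15 settings that gave them a value. No member passed an FDR of 5% in any of these.

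**Figure D5:**
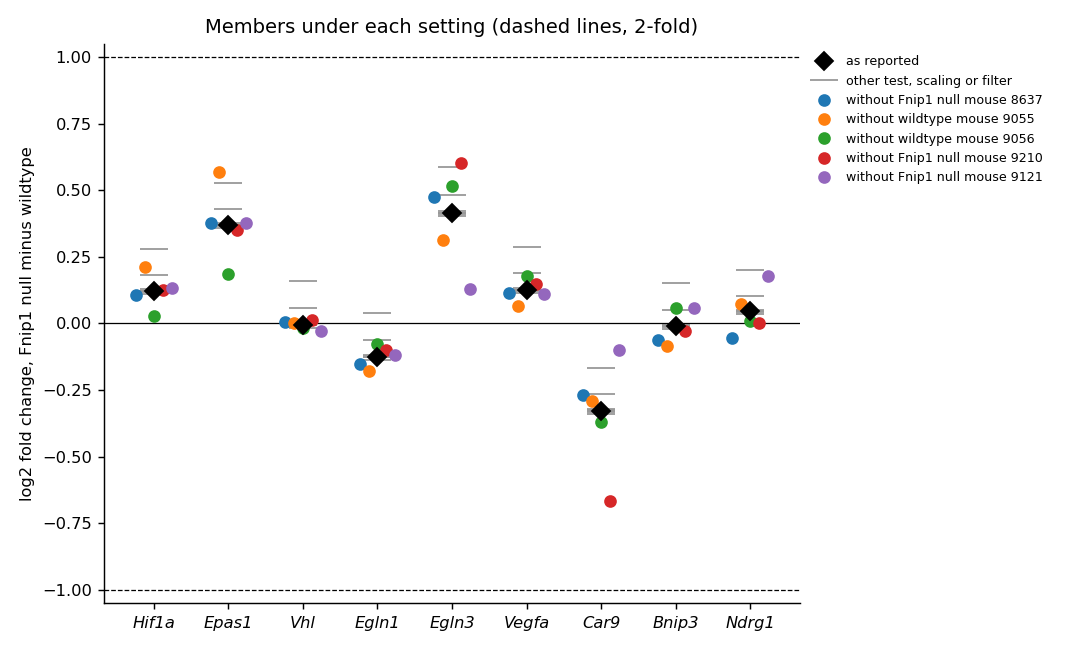
Log2 fold change of the 9 members tested under each setting (other tests, normalizations, filters and single mice left out), with the reported value marked. *Epas1* ranges from 0.19 to 0.57 and *Car9* from -0.67 to -0.10, and no value reaches a 2-fold change.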

How the data were processed

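RNAseq counts of kidney cortex from 3 *Fnip1* null and 2 wildtype mice were analysed. Per the labels and the study's methods, the authors aligned reads to mm10 with TopHat2 2.1.0, counted them per gene with HTSeq 0.6.1 and deposited raw counts without normalization. HTSeq drops reads that align to several places or overlap several genes, and whether strand was used is not given in the sources used here. The HTSeq rows that name no gene stayed out of all totals. As shares of all counts in the deposited tables, the row for alignments that were not unique held 28.3% to 31.4%. The row for no gene held 9.91% to 10.8%, and the ambiguous row held 0.741% to 0.803%.

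A gene was tested if 3 or more mice had at least 10 counts, as 13874 genes did. Libraries were scaled by TMM (factors 0.914 to 1.09) in edgeR 4.0.16 (limma 3.58.1, R 4.3.3), and genotypes were compared with the quasi-likelihood test, with Benjamini-Hochberg adjustment over all genes tested. Each SE was derived from the test's statistic. DESeq2 1.42.0, edgeR's exact, likelihood ratio and legacy tests, other normalizations, filters and thresholds and leaving out each mouse were the alternatives. The tests were first tested on simulated data. Each mouse was 1 sample.

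The members, the pathway list and the marker lists were chosen with earlier results of these data known. By the rule for named genes, the text gives all members, *Fnip1*, the 3 pathway genes per role with the largest log2 fold change and a mean of at least 1 CPM, and the 3 genes nearest in pattern to the member with the largest log2 fold change. One gene that the rule names is not reported here. The other pathway genes called by the exact test, *Kdr* and *Nt5e* were named after their values were seen. Nearest genes were not sought for *Epo*, whose values lie at the detection limit. Gene positions and promoters are from RefSeq (GRCm38.p6), exon lengths and overlaps from GENCODE M21 (GRCm38).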

Additional observations from a re-analysis of the deposited data

How the results depend on the processing

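With 5 mice and 0 to 4 counts of *Epo* per mouse, precision is set by the number of mice and, for *Epo*, by depth. No member passed the threshold in any setting that kept both wildtype mice. The log2 fold changes that changed sign were those of *Vhl*, *Bnip3* and *Ndrg1*, which were close to 0, and that of *Egln1* with library size alone. With upper quartile scaling *Vhl* was 0.059 and *Bnip3* 0.052, and with library size alone *Vhl* was 0.16, *Egln1* 0.038 and *Bnip3* 0.15. Those scalings moved the median of all genes to 0.067 and 0.167, and relative to the latter median *Vhl* was -0.0077, *Egln1* -0.13 and *Bnip3* -0.017. *Vhl* was 0.0033 when genes needed 1 CPM in 3 mice. With each mouse left out, *Vhl* ran from -0.029 to 0.012, *Bnip3* from -0.084 to 0.059 and *Ndrg1* from -0.053 to 0.18.

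Pathway genes past an FDR of 5% and 2-fold numbered 0 in the quasi-likelihood test, 6 in the exact test and 6 in the likelihood ratio test. They numbered 5 in DESeq2, and 4 at an FDR of 10%, where the share of all genes was not counted. With each null mouse left out they numbered between 0 and 6, and all that passed were higher in null mice. All genes past the FDR of 5% and 2-fold leaned the same way. Of them, 56 were higher and 17 lower in the quasi-likelihood test, and 421 and 144 in the exact test. Without null mouse 8637, 6 of 86 pathway genes passed, where 963 of all genes (6.82%) did, against 73 with all mice. Without mouse 9121 136 passed, and without mouse 9210, 9055 or 9056 the count was 0 in edgeR's quasi-likelihood test. The exact test called 565, the likelihood ratio test 628 and DESeq2 487. Fits with 1 wildtype mouse assume that it varies like the null mice. No paired analysis was possible because the genotypes share no replicate numbers. The cause of these changes was not tested.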
